A study of Mus musculus with 30 samples.

Results

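A set of 8 T follicular helper genes was followed: the transcriptional regulators Bcl6, Maf, Pou2af1 and Id3, the surface receptors Cxcr5 and Slamf6, the surface ligand Cd200, and the adaptor gene Sh2d1a. All 8 were found among the 17097 genes with a probe set of their own. A probe set was used if the array annotation gave it exactly 1 symbol, and where a gene had several, the one with the highest average across the 30 arrays was taken. Bcl6 had 2 such probe sets and Slamf6 had 3, and the other genes had 1 each.

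Gene expression was measured on Affymetrix mouse arrays in purified CD4+ T cells and, as a reference population rich in dendritic cells, in CD11c+ cells, with 5 groups of 3 arrays for each. All mice were DO11.10 RAG2-/- BALB/c animals aged 8 to 10 weeks. Unimmunised mice received no antigen. Primed mice were given 100 µg of ovalbumin (OVA) in complete Freund's adjuvant under the skin. Further primed mice were treated with control IgG at 10 mg/kg, or with abatacept at 10 mg/kg, a CTLA-4 fusion protein that binds CD80 and CD86 and so withholds CD28 costimulation. Tolerised mice drank OVA, for which the treatment text gives 50 mg/ml and the design text 50 mg/kg. The design text puts the isolation of cells from immunised mice at 10 days. CD4+ T cells of the 3 primed groups came from axillary lymph nodes, those of tolerised mice from mesenteric nodes, and those of unimmunised mice from lymph nodes pooled with spleen, so tissue and treatment cannot be told apart in several comparisons. For CD11c+ cells, lymph nodes and spleen were pooled in every group. Without RAG2 these mice rearrange neither their own T cell receptor genes nor immunoglobulin genes, so their T cells carry the transgenic OVA receptor and mature B cells are not made. The labels do not say whether the replicates were separate mice, so every p-value rests on the variation among these arrays, some of which may be technical.

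T follicular helper cells are the CD4+ T cells that enter B cell follicles and help germinal centre B cells. Bcl6 is the repressor that directs their differentiation, Cxcr5 is the receptor for the follicular chemokine CXCL13, and the Slamf6 receptor with its adaptor SAP, the product of Sh2d1a, supports lasting contact between T and B cells. Priming by dendritic cells through CD28 and ICOS starts the programme, and B cells are then needed to sustain it.

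The RefSeq promoter table (GRCm38.p6) held windows for 5 of the 8 genes, and the 250 bases before the start site were searched on both strands for 5 motifs. The motifs were the E-box CANNTG of E proteins, which Id3 restrains, the core TTCNNNGAA shared by STAT factors and Bcl6, the octamer ATGCAAAT of the partners of Pou2af1, the NFAT core GGAAA and the Maf core TGCTGA. Of the 6 windows 3 are shown, because the regulator Bcl6 carried the most TTCNNNGAA matches and because Pou2af1 was the regulator called higher under abatacept. In the Bcl6 windows, at chr16:23988853-23989102 and chr16:23981284-23981533 on the minus strand, capitals mark TTCNNNGAA, and in the Pou2af1 window, at chr9:51213440-51213689 on the plus strand, capitals mark CANNTG.
Bcl6 upstream window: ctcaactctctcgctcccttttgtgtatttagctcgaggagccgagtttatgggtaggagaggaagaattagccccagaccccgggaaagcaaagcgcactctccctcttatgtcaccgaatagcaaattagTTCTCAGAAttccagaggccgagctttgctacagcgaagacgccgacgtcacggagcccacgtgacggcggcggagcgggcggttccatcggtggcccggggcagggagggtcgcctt
Bcl6 downstream window: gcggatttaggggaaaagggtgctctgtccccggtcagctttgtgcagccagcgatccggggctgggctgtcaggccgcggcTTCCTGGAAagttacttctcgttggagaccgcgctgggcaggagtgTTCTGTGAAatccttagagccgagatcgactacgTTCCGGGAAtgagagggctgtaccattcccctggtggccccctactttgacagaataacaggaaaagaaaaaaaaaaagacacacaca
Pou2af1 window: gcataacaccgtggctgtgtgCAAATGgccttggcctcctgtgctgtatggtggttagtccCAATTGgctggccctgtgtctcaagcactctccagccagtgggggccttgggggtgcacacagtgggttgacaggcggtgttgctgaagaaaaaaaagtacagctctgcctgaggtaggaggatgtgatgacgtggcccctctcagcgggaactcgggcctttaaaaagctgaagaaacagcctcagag

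The upstream Bcl6 window held 1 TTCNNNGAA match and the downstream one 3. At least 1 such match lay in 7.02% of the 32851 windows of this length in the table, and 3 or more in 9 of them (0.0274%). The downstream window also held 3 NFAT cores, 1 of which overlapped a TTCNNNGAA match, and GGAAA occurred in 55.57% of all windows. Pou2af1 held 2 E-boxes and 1 Maf core, found in 66.22% and 16.08% of all windows. Cd200 held 2 E-boxes, Slamf6 held 1, and the Id3 window held none of the 5 motifs. The octamer, in 1.6% of all windows, was in none of the windows of these genes. A match is a run of letters and no measured binding site, and these arrays did not measure binding.

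All values are deposited log2 RMA values, given per array or as mean ± SD, and a difference of 1 is a doubling of signal. Levels of different genes are not set against each other, since each probe set has its own response. Array medians lay between 4.4555 and 4.544, and a gene with arrays below them was not shown to be above background there. The arrays of a group correlated at 0.9825 to 0.9953 across probe sets. All 11 T cell markers on the array, Cd3e and Cd4 among them, were above the median on every CD4+ array, and the CD11c gene Itgax read 9.56 to 10.29 in CD11c+ cells. The CD4+ unimmunised arrays stood apart. Their neutrophil list averaged 10.02 to 10.28 per array against 3.46 to 5.61 in the other CD4+ groups, their erythroid list 8.15 to 8.45 against 3.73 to 4.30, and their T cell list 8.52 to 8.62 against 9.68 to 9.97. The Y-linked gene Eif2s3y read 8.49 to 8.96 in CD4+ primed and tolerised arrays and 2.41 to 2.75 in the other CD4+ groups. Mouse sex is not labelled, so a difference in sex and the treatment cannot be told apart where sex-linked genes differ between groups.

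Priming was first compared with no immunisation. As deposited, 7 of the 8 genes rose in primed CD4+ T cells and Maf did not pass the test, with a median log2 difference of 1.54 over the 8. Among the 10322 genes tested, 23.3% were called higher and 24.2% lower, and their median difference was 0.02. Slamf6 read 6.54, 6.42 and 6.33 in unimmunised arrays and 8.82, 8.39 and 8.48 in primed arrays. The groups did not overlap, and Slamf6 rose 4.4-fold (log2 difference 2.14, SE 0.12, adjusted p = 1.1e-08, n = 3 per group). Its adaptor partner Sh2d1a averaged 6.75 ± 0.12 before and 8.47 ± 0.13 after priming (SD, n = 3), a 3.3-fold rise (adjusted p = 4.7e-09).

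Bcl6, the defining repressor, read 7.28, 7.06 and 7.18 in unimmunised and 8.04, 8.15 and 8.15 in primed arrays. Every primed array was above every unimmunised one, a 1.91-fold rise as deposited (SE 0.14 log2, adjusted p = 7.7e-05) that turned to a log2 difference of -0.40 relative to T cell markers. Pou2af1, a coactivator of octamer factors, averaged 6.40 ± 0.32 and 7.76 ± 0.11 (SD, n = 3) and so rose 2.57-fold (adjusted p = 0.00038). Id3, an inhibitor of E proteins, averaged 5.35 ± 0.20 and 6.64 ± 0.22 (SD, n = 3), a 2.44-fold rise as deposited (adjusted p = 4.6e-05) and a log2 difference of -0.05 relative to T cell markers. Maf, a factor that drives Il21 and Il4 in helper cells, read 4.14, 4.88 and 4.59 in unimmunised and 4.78, 3.63 and 4.48 in primed arrays. The Maf arrays overlapped and straddled the array medians (log2 difference -0.24, 95% interval -0.90 to 0.41, adjusted p = 0.54).

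Cxcr5 read 2.82, 3.06 and 3.45 in unimmunised arrays, all below the array medians, and 5.81, 4.29 and 5.12 in primed arrays. It rose by 1.97 on the log2 scale (SE 0.43, adjusted p = 0.0021), and since its unimmunised level was not shown to be above background the fold is not exact. Cxcr5 passed the filter on dim genes only through the immunised and tolerised groups. Cd200, a surface ligand that restrains myeloid cells, read 3.96, 5.01 and 5.16 in unimmunised and 7.24, 6.63 and 7.21 in primed arrays. The groups were clearly apart and Cd200 rose 4.98-fold (SE 0.33 log2, adjusted p = 6.9e-05).

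**Figure D1:**
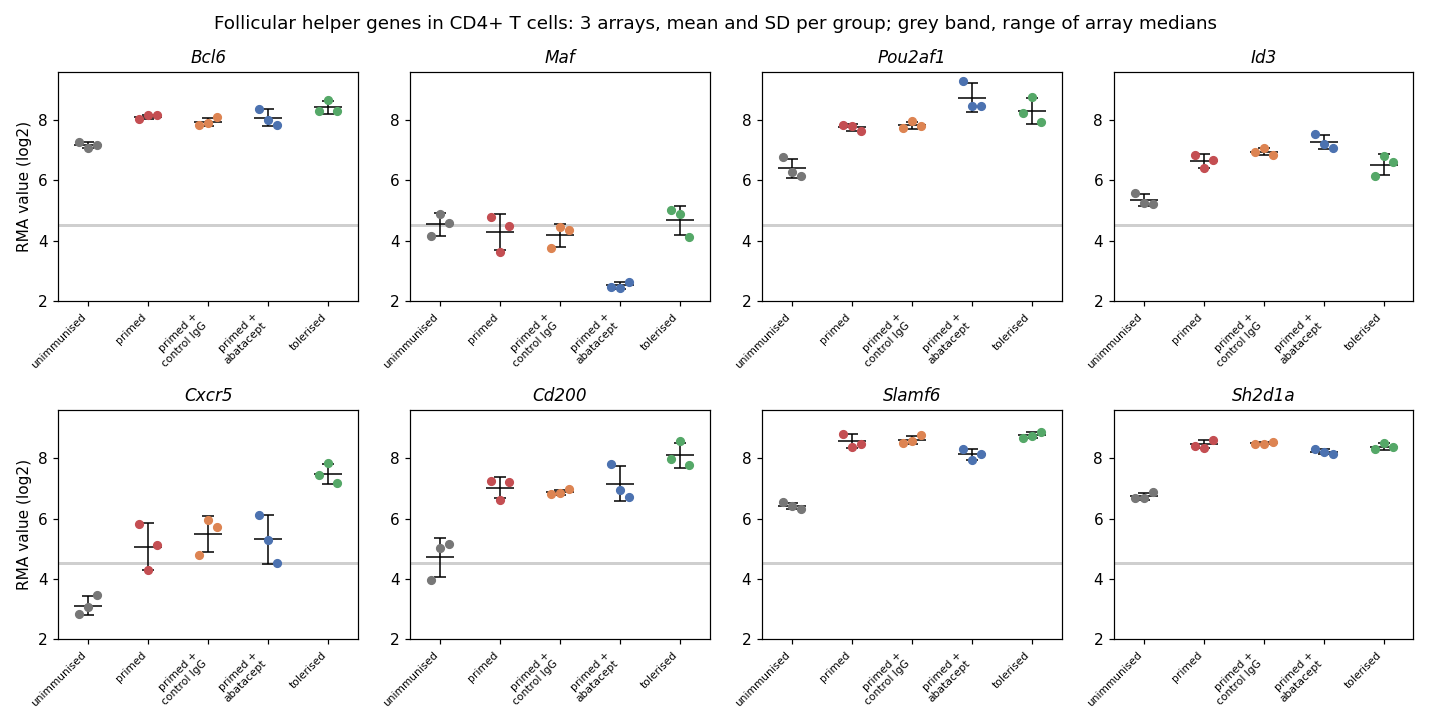
Log2 RMA values of the 8 genes in CD4+ T cells, with a point per array, the mean and SD of 3 arrays per group, and a grey band over the range of array medians (4.4555 to 4.544). As deposited, unimmunised arrays are lowest for every gene but Maf, Cxcr5 and Cd200 are highest in tolerised arrays, and Maf is lowest in abatacept arrays, at 2.44 to 2.64.

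The tolerised and the abatacept-treated groups were compared with the same 3 unimmunised arrays, so these comparisons share their control samples with the one above. In tolerised cells 7 of 8 rose as deposited and Maf did not pass (median 1.78; 20.3% of all genes called higher and 29.3% lower, median -0.03). Cxcr5 was 4.38 above its unimmunised level (SE 0.43, adjusted p = 2.1e-06), which was below the array medians, so this difference is not exact. Cd200 was 3.40 higher (SE 0.33, adjusted p = 2e-06). Under abatacept 7 of 8 rose as deposited and Maf fell by 2.02 (adjusted p = 7.3e-05; median 1.81; 23.4% of all genes called higher and 34.5% lower, median -0.05). For Maf every abatacept array was below its array median, so the size of that fall is not exact. Bcl6 differed from unimmunised cells by 1.24 in tolerised and by 0.90 in abatacept-treated cells.

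T cell markers themselves were lower in the unimmunised arrays, and 10 of 11 rose in primed arrays (median 1.06). In a bulk sample fewer T cells and less RNA per T cell cannot be told apart. The 8 genes were therefore also read relative to the mean of the T cell markers of each array, an alternative chosen after seeing the data. Slamf6, Cd200 and Sh2d1a remained higher in primed arrays, by 0.80, 0.98 and 0.38 (adjusted p = 1e-05, 0.008 and 0.00048). Cxcr5 was 0.63 higher without passing the test (adjusted p = 0.155), and Pou2af1 and Id3 differed by 0.03 and -0.05 (adjusted p = 0.91 and 0.76). Bcl6 turned in direction, to -0.40 in primed (adjusted p = 0.0068) and -0.37 in abatacept-treated cells (adjusted p = 0.01), and differed by 0.09 in tolerised cells (adjusted p = 0.5). This scale does not remove signal of other cells from the values.

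On that scale Maf was lower than in unimmunised arrays in primed, tolerised and abatacept-treated cells (log2 differences -1.58, -1.02 and -3.29; adjusted p = 0.00013, 0.0044 and 7.3e-08). The abatacept value rests on arrays below their medians for Maf, so its size is not exact. Cxcr5 and Cd200 stayed higher in tolerised cells, by 3.23 and 2.24 (adjusted p = 3.7e-06 and 8.7e-06). The direction of Bcl6, Maf and Id3 against unimmunised cells thus depended on the scale in at least 1 of these comparisons. Genes of macrophages, which express Maf, were also high in the unimmunised CD4+ arrays, where the 9 monocyte and macrophage markers averaged 8.23 to 8.55 against 5.00 to 6.89 in the other CD4+ groups. Bcl6 likewise read higher in unimmunised CD11c+ cells (8.31 ± 0.09) than in unimmunised CD4+ cells (7.18 ± 0.11). The part of such other cells in the Maf and Bcl6 levels of the unimmunised CD4+ arrays was not tested.

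**Figure D2:**
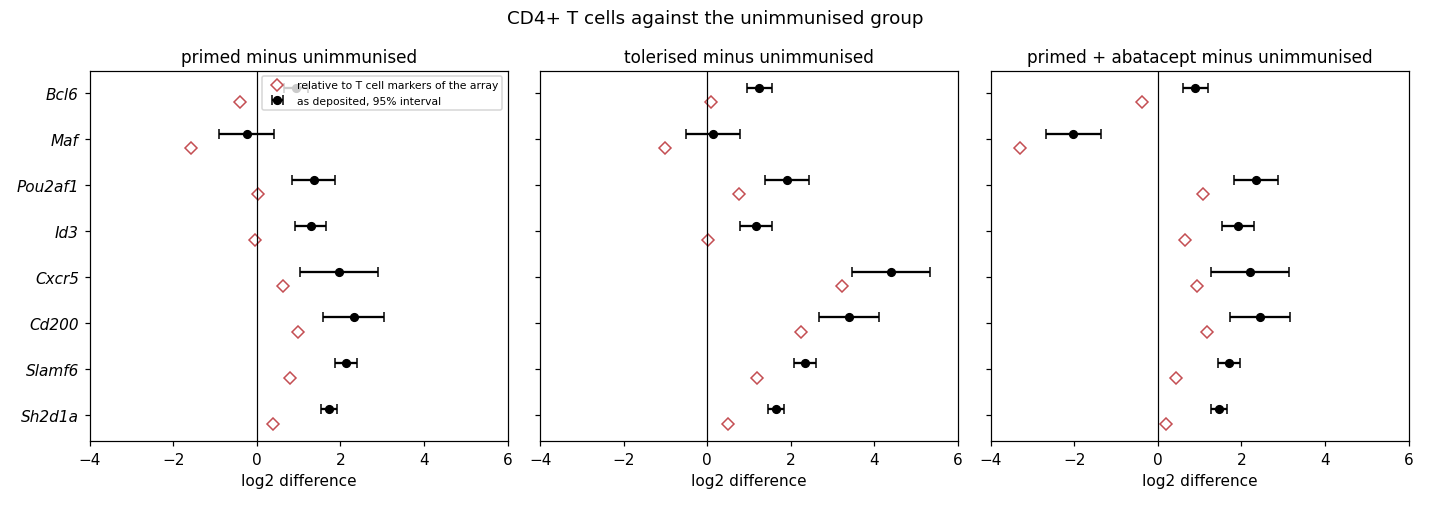
Log2 differences of the 8 genes in primed, tolerised and abatacept-treated CD4+ T cells from the same unimmunised arrays. Black points with 95% intervals are values as deposited, and open diamonds are values relative to the T cell markers of each array, on which Bcl6 lies at -0.40, 0.09 and -0.37.

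Abatacept was then compared with control IgG, the matched treatment of primed mice, in cells of the same lymph nodes. Of the 8 genes Pou2af1 rose, Maf, Slamf6 and Sh2d1a fell, and Bcl6, Cxcr5, Id3 and Cd200 did not pass the test. The median log2 difference was -0.03, and of all genes tested 3.33% were called higher and 13.4% lower, with a median of -0.07. Without abatacept replicate 2 or 3 or control IgG replicate 1, 2 of the 8 were called, and without control IgG replicate 3 only 1, Maf. The 1722 calls over all genes became 1074, 1031 and 1107 without abatacept replicate 2 or 3 or control IgG replicate 2.

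Maf read 3.75, 4.44 and 4.36 in control IgG arrays and 2.46, 2.44 and 2.64 in abatacept arrays. All abatacept arrays lay far below all control arrays, a fall of 1.67 on the log2 scale (log2 difference -1.67, SE 0.30, 95% interval -2.32 to -1.01, adjusted p = 0.0023). All 6 arrays were under their array medians, so Maf was not shown to be above background in either group and the 3.18-fold difference is not exact. Maf passed the filter on dim genes only through the unimmunised, primed and tolerised groups. With only the abatacept and control IgG groups in the fit it was not tested. In the fit of all 5 CD4+ groups the call held when each array was left out in turn.

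Pou2af1 read 7.73, 7.96 and 7.79 in control IgG and 9.31, 8.47 and 8.46 in abatacept arrays. Every abatacept array was higher, and the difference was 0.92 (SE 0.24, 1.9-fold, adjusted p = 0.019). The call was lost without abatacept replicate 1 (0.64, adjusted p = 0.056), control IgG replicate 1 (0.87, adjusted p = 0.061) or control IgG replicate 3 (0.91, adjusted p = 0.059). Pou2af1 is best known in B cells. The B cell master factors Pax5 and Ebf1 read 2.50 to 3.06 and 2.49 to 2.79 across all CD4+ arrays, below every array median. The 11 B cell markers on the array averaged 3.95 to 4.10 under abatacept and 4.13 to 4.35 under control IgG. Of these 11, 2 were above the median on every abatacept array and 3 on every control IgG array. A part of B cells in the Pou2af1 level was not tested.

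Slamf6 read 8.51, 8.56 and 8.76 in control IgG and 8.30, 7.95 and 8.14 in abatacept arrays. It fell by 0.48 on the log2 scale (SE 0.12, adjusted p = 0.018), with no overlap between the arrays. The call was lost without abatacept replicate 2 (-0.39, adjusted p = 0.081), abatacept replicate 3 (-0.48, adjusted p = 0.052) or control IgG replicate 3 (-0.40, adjusted p = 0.079), and with the mean of its 3 probe sets (-0.41, adjusted p = 0.066). A further probe set averaged 8.03 under control IgG and 7.12 under abatacept. The last averaged 5.525 and 5.674, opposite in direction.

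Sh2d1a read 8.48, 8.48 and 8.54 in control IgG and 8.30, 8.21 and 8.13 in abatacept arrays. The arrays did not overlap, and the fall was small, 0.29 on the log2 scale (SE 0.09, adjusted p = 0.042). It was no longer called in 9 of 21 alternatives, among them those without abatacept replicate 2 or 3, any control IgG replicate, or primed replicate 1 (log2 differences of -0.33 to -0.25 and adjusted p up to 0.147 over all arrays left out), nor relative to T cell markers (-0.23, adjusted p = 0.09).

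Bcl6, Cxcr5, Cd200 and Id3 were not called. Bcl6 read 7.85, 7.90 and 8.10 in control IgG and 8.38, 8.00 and 7.84 in abatacept arrays, with overlap, and the 95% interval of the log2 difference ran from -0.17 to 0.42 (adjusted p = 0.58). Cxcr5 read 4.79, 5.95 and 5.72 in control IgG and 6.12, 5.30 and 4.51 in abatacept arrays, a wide spread in both groups (interval -1.11 to 0.76, adjusted p = 0.83). Cd200 differed by 0.29 (interval -0.43 to 1.01, adjusted p = 0.61). Id3 was higher on each abatacept array, 7.08 to 7.54 against 6.84 to 7.07, without passing the test (0.33, interval -0.05 to 0.71, adjusted p = 0.23). These intervals do not show that the levels were alike.

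Other cell states moved in the same comparison. All 9 cell cycle markers tested fell under abatacept, and their average per array was 6.44 to 6.71 against 8.42 to 8.86. The regulatory T cell list, of which 4 of 9 fell, averaged 7.26 to 7.54 against 8.06 to 8.28, and Foxp3 averaged 6.86 ± 0.09 against 8.60 ± 0.40 (SD, n = 3). Of 4 tested natural killer and innate lymphoid markers 2 rose, with averages of 5.64 to 5.98 against 5.02 to 5.23, while the T cell list averaged 9.79 to 9.91 against 9.87 to 9.93. The naive T cell list averaged 9.67 to 9.72 under abatacept against 9.36 to 9.49 under control IgG. For the CD8 T cell list these averages were 6.92 to 7.03 against 6.06 to 6.51. The part of cell division, of regulatory T cells or of these other shifts in the differences of the 8 genes was not tested.

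Control IgG itself was compared with priming alone. None of the 8 genes was called by limma, none had an unadjusted p under 0.05, and the largest log2 difference was 0.41, for Cxcr5 (interval -0.52 to 1.35). Over all genes 0% were called higher and 0.0872% lower.

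Tolerised cells were compared with primed cells, 2 groups that had met the same antigen by different routes and came from mesenteric and axillary nodes. Cxcr5 and Cd200 rose and the other 6 genes did not pass (median 0.34), while 6.24% of all genes were called higher and 8.43% lower (median -0.05). Cxcr5 read 7.44, 7.85 and 7.18 in tolerised and 5.81, 4.29 and 5.12 in primed arrays. The tolerised arrays were all far above the primed ones, a 5.35-fold rise (log2 difference 2.42, SE 0.43, adjusted p = 0.0024), and the call held when each array was left out in turn.

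Cd200 read 7.99, 8.56 and 7.77 in tolerised and 7.24, 6.63 and 7.21 in primed arrays. It rose 2.11-fold without overlap (log2 difference 1.08, SE 0.33, adjusted p = 0.045). The margin was narrow, since the call was lost in 13 of 21 alternatives. Among them were the fits without any 1 primed or control IgG array, without tolerised replicate 1 or 2, abatacept replicate 2 or unimmunised replicate 2, with differences of 0.85 to 1.25 and adjusted p up to 0.155 over all arrays left out.

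Bcl6 read 8.31, 8.66 and 8.29 in tolerised arrays, each above the highest primed array at 8.15, and did not pass (0.31, interval 0.01 to 0.60, adjusted p = 0.16). Pou2af1 was likewise higher on each tolerised array, 7.92 to 8.76 against 7.63 to 7.85 (0.55, adjusted p = 0.15). Relative to T cell markers 5 genes were called higher in tolerised cells, Cxcr5 (2.60), Cd200 (1.26), Pou2af1 (0.73), Bcl6 (0.49) and Slamf6 (0.38). Maf, Id3, Slamf6 and Sh2d1a overlapped between the groups as deposited, with differences of 0.38, -0.12, 0.20 and -0.07.

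Markers of other cells also differed between these groups. All 6 mast cell and basophil markers rose in tolerised arrays, which averaged 4.56 to 6.18 against 3.35 to 3.51, and of 4 tested natural killer and innate lymphoid markers 3 rose, with averages of 6.32 to 6.96 against 5.02 to 5.24. Of 6 red pulp macrophage markers 5 rose (median 0.95), with 3 of 8 neutrophil and 3 of 9 monocyte and macrophage markers. Of 9 cell cycle markers 7 fell, with averages of 7.90 to 8.26 against 8.77 to 8.93. The regulatory T cell list averaged 8.70 to 9.01 against 7.84 to 8.60, and the naive T cell list 8.96 to 9.07 against 9.28 to 9.40. The B cell list averaged 4.25 to 4.29 against 4.01 to 4.30, and Pax5 and Ebf1 were below the array medians throughout. Of its 11 genes on the array, 4 were above the median on every tolerised array and 3 on every primed array. The 1514 calls over all genes became 984 without tolerised replicate 1. The part of these cells in the higher Cxcr5 and Cd200 was not tested, and the node of origin and the treatment cannot be told apart. While Eif2s3y was high in both groups, the 4 sex-linked genes on the array averaged 7.13 to 7.37 in tolerised and 8.06 to 8.40 in primed arrays. Mouse sex is not labelled, and the part of this difference was not tested.

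Abatacept-treated cells were also compared with tolerised cells, from axillary and mesenteric nodes. In abatacept-treated cells Id3 was higher than in tolerised cells and Cxcr5, Maf and Slamf6 were lower, and 4 genes did not pass (median -0.49; all genes 7.54% higher and 15.8% lower, median -0.04). Cxcr5 was 2.18 lower (log2 difference -2.18, SE 0.43, adjusted p = 0.0029), with abatacept arrays at 4.51 to 6.12 and tolerised arrays at 7.18 to 7.85. Maf differed by -2.16 (adjusted p = 0.00023) and Slamf6 by -0.63 (adjusted p = 0.0026). Every abatacept array was below its median for Maf, so the size of the Maf difference is not exact. Id3 read 6.13, 6.80 and 6.62 in tolerised and 7.54, 7.21 and 7.08 in abatacept arrays, a difference of 0.75 without overlap (SE 0.18, adjusted p = 0.0082). It lost its call when only these groups entered the fit (adjusted p = 0.051). Cd200 at -0.95 just missed the threshold (adjusted p = 0.057), and was called without abatacept replicate 1 (-1.27, adjusted p = 0.015), tolerised replicate 3 (-1.12, adjusted p = 0.043) or unimmunised replicate 1 (-0.95, adjusted p = 0.026). Bcl6 at -0.35 (adjusted p = 0.085) was called without abatacept replicate 1 (-0.50, adjusted p = 0.013). Beside these values, all 9 cell cycle (median -1.67), all 9 regulatory T cell (median -1.17) and all 6 mast cell and basophil markers (median -1.85) were lower in abatacept-treated cells, as were 5 of 6 red pulp macrophage and 3 of 4 natural killer and innate lymphoid markers. Eif2s3y was also low under abatacept and high in tolerised arrays, and the part of these differences was not tested.

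**Figure D3:**
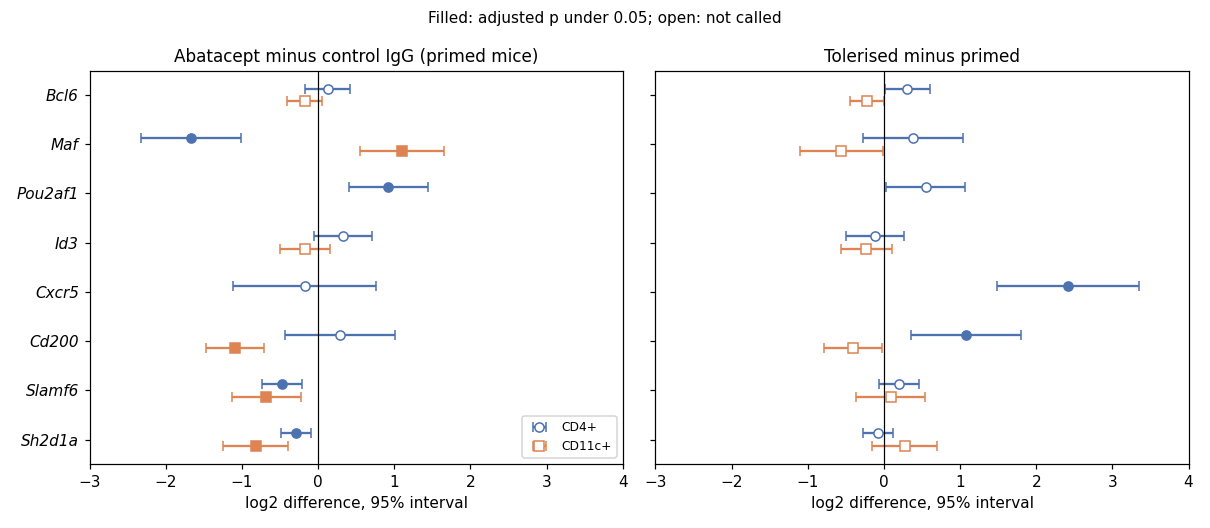
Log2 differences with 95% intervals for abatacept minus control IgG and for tolerised minus primed, in CD4+ T cells (circles) and CD11c+ cells (squares), filled where the adjusted p is under 0.05. Maf lies at -1.67 in CD4+ and 1.10 in CD11c+ cells under abatacept, and Cxcr5, which was not tested in CD11c+ cells alone, lies at 2.42 in tolerised CD4+ cells.

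The order of the 5 CD4+ groups differed between the genes. Bcl6 ran from tolerised (8.42) over primed, abatacept and control IgG to unimmunised (7.18), and only the last step, from control IgG to unimmunised, passed the test (0.77, adjusted p = 0.00038). Cxcr5 ran from tolerised over control IgG, abatacept and primed to unimmunised, with called steps below tolerised (2.01, adjusted p = 0.0078) and above unimmunised, while the 3 primed groups overlapped. Cd200 ran from tolerised over abatacept, primed and control IgG to unimmunised, and only its last step was called (2.16, adjusted p = 0.00012).

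Slamf6 and Sh2d1a had unimmunised lowest and abatacept next, and Slamf6 fell by 0.43 from primed to abatacept (adjusted p = 0.023), while the tolerised, control IgG and primed groups did not differ beyond their spread. Pou2af1 and Id3 were highest under abatacept and lowest in unimmunised cells, and among neighbours only the step above unimmunised was called for either (1.36 and 1.17). Of pairs further apart, primed and abatacept differed for Pou2af1 (primed minus abatacept -0.99, adjusted p = 0.011) and Id3 (-0.64, adjusted p = 0.021), and control IgG and tolerised for Bcl6 (control IgG minus tolerised -0.47, adjusted p = 0.037) and Cd200 (-1.23, adjusted p = 0.026). Maf was the exception, with tolerised, unimmunised, primed and control IgG overlapping between 4.18 and 4.68 in mean and abatacept alone below them at 2.51.

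In CD11c+ cells 6 of the 8 genes could be tested. Cxcr5 read 2.75 to 3.65 on the 15 arrays, below every array median, and Pou2af1 read 3.36 to 5.09 and exceeded the median on 2 arrays, so neither passed the filter. Priming raised 5 of 6 and lowered Maf (25.5% of all genes called higher, 13.2% lower), and in tolerised mice 4 rose and Maf fell (31.9% and 16.7%), against the same unimmunised arrays. Maf read 7.67, 7.14 and 7.04 in unimmunised, 5.85, 5.77 and 5.50 in primed and 4.58, 5.29 and 5.58 in tolerised arrays. Unimmunised arrays were all higher than the rest, with differences of -1.58 (adjusted p = 0.00041) and -2.13 (adjusted p = 2.4e-05). Markers of many cells differed in these comparisons too. All 7 tested neutrophil markers rose with priming and in tolerised mice (medians 2.42 and 3.17), as did 7 and 6 of 7 conventional dendritic cell, 7 and 9 of 9 cell cycle and 6 and 8 of 9 T cell markers, while 5 of 6 red pulp macrophage markers fell in both (medians -0.96 and -1.59). Eif2s3y read 8.53 to 8.64 in primed and 2.46 to 2.69 in unimmunised CD11c+ arrays. The part of these differences was not tested.

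Cd200 read 5.30, 5.38 and 5.54 in unimmunised and 6.97, 7.26 and 7.14 in primed CD11c+ arrays, a 3.29-fold rise (adjusted p = 2e-05), and Sh2d1a rose by 1.48 (adjusted p = 0.00011). Bcl6, which dendritic cells also express, rose by 0.65 (adjusted p = 0.0004) and Slamf6 by 0.82 (adjusted p = 0.0079). Id3, above the median on no unimmunised array, rose by 0.50 (adjusted p = 0.02), a call lost without primed replicate 1 (0.44, adjusted p = 0.073) or unimmunised replicate 1 (0.43, adjusted p = 0.072). Between tolerised and primed CD11c+ cells none of the 6 was called by limma (1.39% of all genes higher, 1.45% lower). Cd200 (-0.40) and Maf (-0.56) were the 2 with an unadjusted p under 0.05, and Bcl6 was lower on every tolerised array (-0.22).

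Under abatacept Maf moved in CD11c+ cells in the direction opposite to that in CD4+ cells, where its values in both groups were below the array medians. It read 5.84, 6.56 and 5.75 under control IgG and 7.21, 7.21 and 7.02 under abatacept, a rise of 1.10 without overlap (SE 0.26, adjusted p = 0.013). Cd200 fell by 1.09 (adjusted p = 0.0025), from 7.25, 6.84 and 7.66 to 6.15, 6.21 and 6.10, Sh2d1a fell by 0.82 (adjusted p = 0.015), and Slamf6 fell by 0.68 (adjusted p = 0.045). Of all genes 6.43% were called higher and 8.86% lower. The Maf call was lost without abatacept replicate 1 (1.07, adjusted p = 0.051), control IgG replicate 1 (0.99, adjusted p = 0.057) or control IgG replicate 3 (0.95, adjusted p = 0.072). Sh2d1a was lost without abatacept replicate 1 (-0.77, adjusted p = 0.061) or 2 (-0.72, adjusted p = 0.065) or control IgG replicate 1 (-0.67, adjusted p = 0.072) or 3 (-0.84, adjusted p = 0.053), and Slamf6 in 13 of 21 alternatives, 9 of them with 1 array left out (adjusted p up to 0.199, without control IgG replicate 3). The 1560 calls over all genes fell to 525 without control IgG replicate 3, and to 701, 778 and 714 without abatacept replicate 1 or 2 or control IgG replicate 1.

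Marker lists moved alongside. The 6 red pulp macrophage markers averaged 10.86 to 10.94 per array under abatacept, 10.896 to 11.001 in unimmunised, 10.065 to 10.60 in control IgG, 9.94 to 10.21 in primed and 9.02 to 9.91 in tolerised CD11c+ arrays, and the order of the group medians was that of Maf. The T cell list in CD11c+ cells averaged 6.01 to 6.11 under abatacept and 6.42 to 6.70 under control IgG, and 5.63 to 6.39 in unimmunised arrays, low where Sh2d1a and Slamf6 were low. Conventional dendritic cell markers fell for 6 of 7 under abatacept, with averages of 7.78 to 7.92 against 8.34 to 8.69. Salivary Amy1 was high on 5 CD11c+ arrays, and without them Cd200 was the only 1 of the 6 genes still called, while Maf differed by 1.37 (adjusted p = 0.056). Eif2s3y read 8.76, 5.92 and 8.20 under control IgG and 2.37 to 2.72 under abatacept in CD11c+ cells. The part of these shifts in the values of the 6 genes was not tested.

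**Figure D4:**
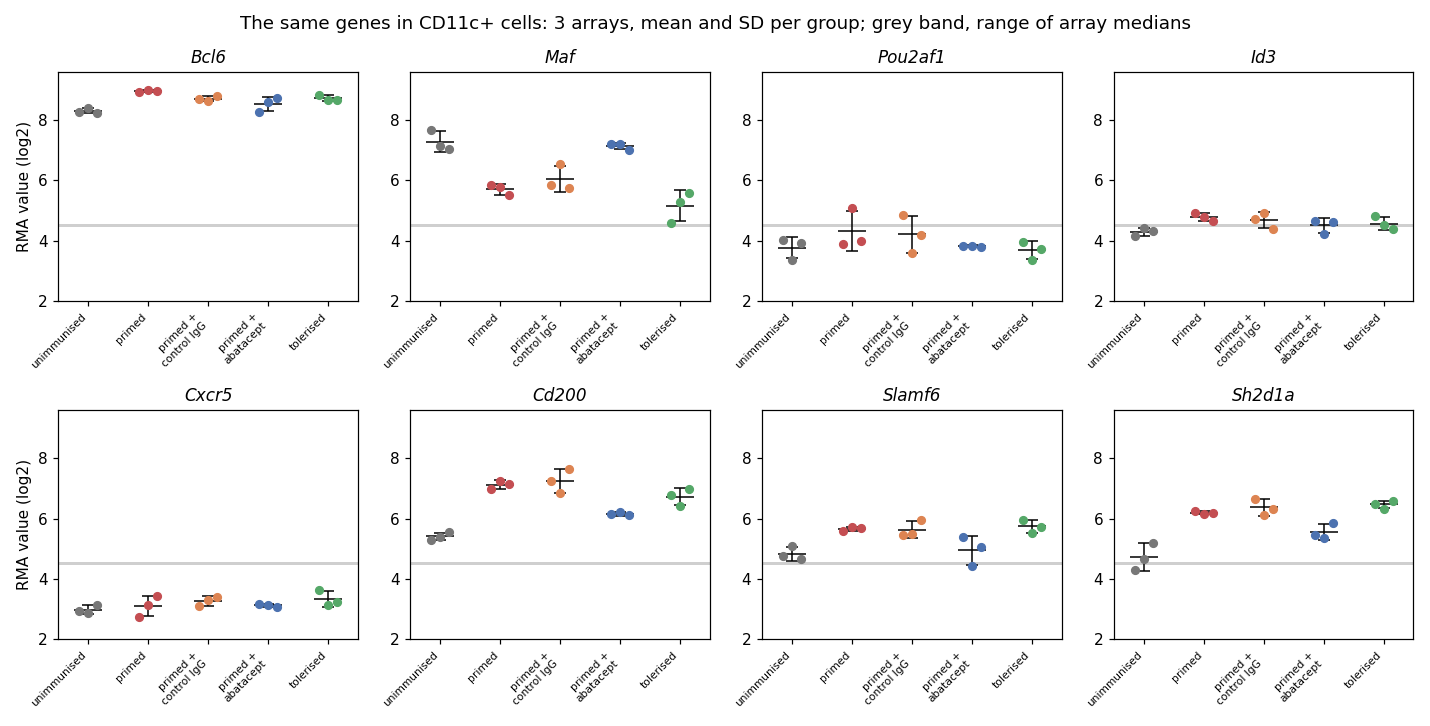
Log2 RMA values of the same 8 genes in CD11c+ cells, with a point per array, the mean and SD of 3 arrays per group and a grey band over the array medians. Maf is high in unimmunised (7.04 to 7.67) and abatacept arrays (7.02 to 7.21), and Cxcr5 lies below the band on all 15 arrays.

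Between cell types, Pou2af1, Id3, Slamf6 and Sh2d1a were higher in CD4+ T cells in all 5 conditions by limma over the 30 arrays, and Cxcr5 in all but the unimmunised condition. Sh2d1a differed by 1.92 to 2.66, Slamf6 by 1.59 to 3.18 and Id3 by 1.06 to 2.77. Pou2af1 and Cxcr5 entered this fit through the CD4+ arrays, where they are high, and were set against CD11c+ levels not shown to be above background, so their differences are not exact and their calls say little beyond their detection in CD4+ cells. Pou2af1 differed by 2.63 to 4.93, and Cxcr5 by 4.16 in tolerised mice, while in unimmunised mice Cxcr5 was below the array medians in both cell types. Bcl6 was higher in CD11c+ cells in all 5 conditions, by -1.13 in unimmunised and -0.31 in tolerised mice as CD4+ minus CD11c+. The tolerised Bcl6 call (adjusted p = 0.033) was lost without CD11c+ tolerised replicate 1 (-0.26, adjusted p = 0.12), CD4+ tolerised replicate 1 (-0.26, adjusted p = 0.12) or CD4+ tolerised replicate 3 (-0.25, adjusted p = 0.14).

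Maf was higher in CD11c+ cells in all conditions but the tolerised one, where it did not pass (-0.47, adjusted p = 0.17), and the gap reached -4.63 under abatacept (adjusted p = 9.2e-13). The CD4+ abatacept arrays read 2.44 to 2.64 for Maf, below the array medians, so the size of that gap is not exact. Cd200 changed side. It was lower in CD4+ cells in unimmunised mice (-0.70, adjusted p = 0.033), a call lost without CD4+ unimmunised replicate 1 (-0.32, adjusted p = 0.31) or CD11c+ unimmunised replicate 2 (-0.71, adjusted p = 0.06) or 3 (-0.63, adjusted p = 0.09). It was higher in CD4+ cells under abatacept (1.003, adjusted p = 0.0031) and in tolerised mice (1.39, adjusted p = 0.00017). Of the 8 genes 4 were called higher and 3 lower in CD4+ cells in unimmunised mice, where 38.6% and 27.8% of 10838 genes were. The counts were 5 and 2 in primed mice (34.1% and 29.1% of all genes), 5 and 2 under control IgG (35.1% and 30.6%), 6 and 2 under abatacept (33% and 35.6%), and 6 and 1 in tolerised mice (28.2% and 31.9%). The higher counts include Pou2af1 in every condition and Cxcr5 in all but the unimmunised one. Both entered the fit through the CD4+ arrays, so these counts are in part fixed by the filter.

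The differences between conditions were then compared between the cell types as interactions. For priming, 4 of the 8 genes differed, all with the larger value in CD4+ cells (all genes 14.6% higher and 27.3% lower): Cxcr5 by 1.84 (adjusted p = 0.0039), Slamf6 by 1.32 (adjusted p = 0.0002), Id3 by 0.78 (adjusted p = 0.013) and Maf, which was called lower in CD11c+ and not in CD4+ cells, by 1.33 (adjusted p = 0.013). These interactions use the unimmunised CD4+ arrays, whose T cell list averaged 8.52 to 8.62 against 9.84 to 9.97 in primed CD4+ arrays. Relative to T cell markers, the CD4+ difference with priming was not called for Cxcr5 or Id3 and was a fall for Maf. The part of this shift in the priming interactions was not tested. For abatacept, Maf differed by -2.76 (SE 0.42, adjusted p = 7.9e-05), Cd200 by 1.38 (adjusted p = 0.022) and Pou2af1 by 1.31 (adjusted p = 0.043), where 4.97% and 9.29% of all genes were called. The Cd200 call was lost without CD11c+ control IgG replicate 3 (1.17, adjusted p = 0.077) or CD4+ abatacept replicate 1 (1.05, adjusted p = 0.064). The Pou2af1 call was lost in 10 of the alternatives, 9 of them with any 1 array of these 4 groups left out save CD11c+ control IgG replicate 2 and CD4+ abatacept replicates 2 and 3 (0.998 to 1.38, adjusted p up to 0.138). For tolerised minus primed, Cxcr5 differed by 2.19 (adjusted p = 0.0042) and Cd200 by 1.48 (adjusted p = 0.016), where 4.94% and 6.27% of all genes were, and without CD4+ tolerised replicate 3 these became 4 of the 8 genes. CD4+ and CD11c+ cells came from different organs in the axillary and mesenteric groups, so cell type and organ cannot be told apart in these interactions. Eif2s3y differed between the cell types within a condition as well, at 8.84 to 8.96 in CD4+ against at most 2.84 in CD11c+ tolerised arrays and 2.42 to 2.65 against 5.92 to 8.76 under control IgG, and mouse sex, which is not labelled, cannot be told apart from cell type there. The interactions of Cxcr5 and Pou2af1 rest on CD11c+ values near or below the array medians. The abatacept interaction of Maf rests on CD4+ values below the array medians in both groups, so its size is not exact.

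The rest of the follicular helper programme was read from lists of genes known to act in it. Of 14 surface receptors and ligands 12 were tested in CD4+ cells, and 11 rose with priming (median 1.51), led by Icos, the costimulatory receptor of follicular helper cells, at 4.45 (adjusted p = 2.2e-11), the inhibitory receptor Ctla4 at 5.42 and the costimulator Tnfrsf4 (OX40) at 2.95. Pdcd1, the gene of PD-1, rose by 1.59 and Cd40lg, the ligand that activates B cells, by 1.41. The unimmunised mean of Pdcd1 was below the array medians, so its rise is not exact. Of 14 transcription factors 10 were tested and 8 rose (median 0.84; 23.3% of all genes rose), led by Irf4 (2.79), Egr2 (2.58) and Batf (2.36). All of these were set against the same unimmunised arrays with their lower T cell markers. Among 12 genes that restrain the programme 7 rose and 3 fell (median 0.34), and of these Il2ra rose by 3.99 and Tbx21, the Th1 factor, fell by 1.46.

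Under abatacept 4 of the 12 surface genes fell and 2 rose (median -0.28), where 13.4% of all genes fell and 3.33% rose (median -0.07). Icos averaged 11.34 ± 0.19 in control IgG and 9.45 ± 0.30 in abatacept arrays (SD, n = 3), a fall of 1.89 (adjusted p = 7.7e-07), Tnfrsf4 fell by 1.24 (adjusted p = 0.00026) and P2rx7 by 0.71 (adjusted p = 0.0014). Pdcd1 averaged 4.58 ± 0.17 and 4.03 ± 0.12 (SD, n = 3), did not pass (adjusted p = 0.078), and lay below the medians on all abatacept arrays. Cd40lg differed by -0.36 (adjusted p = 0.17). Of the 10 factors 4 rose and 2 fell (median 0.22), with Batf, an AP-1 factor needed for follicular helper cells, lower by 1.13 (log2 difference -1.13, adjusted p = 0.00012), and Bach2 and Egr2 higher by 0.63 and 0.82.

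Of the restraining genes 3 fell and 1 rose under abatacept: Il2ra changed by -2.20 (adjusted p = 2.3e-06), Runx3 by -0.51, Tbx21 by -0.53 (adjusted p = 0.033) and Klf2, which keeps T cells out of follicles, by 0.46 (adjusted p = 0.005). Prdm1, the antagonist of Bcl6, differed by -0.43 (adjusted p = 0.16), and Id2 by -0.22 (adjusted p = 0.29). Of 5 positioning genes Cxcr3, a receptor for interferon-induced chemokines, fell by 3.21 on the log2 scale (adjusted p = 1.2e-07) and Selplg by 0.25. None of the 6 tested genes of the SLAM family and its signalling beside Slamf6 and Sh2d1a was called by limma, and 1, the adaptor Sh2d1b1, named here after its values were seen, had an unadjusted p under 0.05. Of 6 tested Maf relatives Mafg fell by 0.59 (adjusted p = 0.0032) and Maff rose by 0.58 (adjusted p = 0.043). Of 4 tested E protein and Id genes beside Id3 only Tcf12, an E protein, was called, with a fall of 0.28 (adjusted p = 0.042).

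Between tolerised and primed cells the surface genes were divided, with 5 of 12 higher and 3 lower (median 0.16), where 6.24% of all genes were higher and 8.43% lower (median -0.05). Cd40lg averaged 6.63 ± 0.31 in tolerised and 8.50 ± 0.13 in primed arrays (SD, n = 3; log2 difference -1.87, adjusted p = 1.8e-05), the interleukin-6 receptor Il6ra fell by 1.08 and Icos by 0.67 (adjusted p = 0.0043). Pdcd1 rose with Cxcr5 and Cd200, from 5.08 ± 0.28 to 6.01 ± 0.45 (SD, n = 3; 0.93, adjusted p = 0.0071), and Ctla4 rose by 1.18 (adjusted p = 0.0014). Of the 10 factors 6 rose and 1 fell (median 0.43), led by Egr2 (1.28), Ikzf3 (1.10) and Nfatc1 (0.81). Of the 12 restraining genes 4 rose and 2 fell, with Il2rb (1.15), Tbx21 (0.96, adjusted p = 0.0013) and Id2 (0.58, adjusted p = 0.011) higher. Of 3 tested cytokines 2 rose, Ifng by 1.74 (adjusted p = 0.00064) and Lif by 1.19 (adjusted p = 0.004).

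Il21, the signature cytokine of follicular helper cells, read 3.04 to 4.25 over the 15 CD4+ arrays, below every array median, and was not tested. Ascl2, which induces Cxcr5, read 2.79 to 3.38 and Tox2 2.33 to 4.43, also below the medians, and neither was tested. Tox2 was highest in tolerised arrays, at 4.15 to 4.43. Foxp3, the factor of regulatory T cells, averaged 8.92 ± 0.21 in tolerised and 9.02 ± 1.03 in primed arrays (SD, n = 3), which overlapped.

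**Figure D5:**
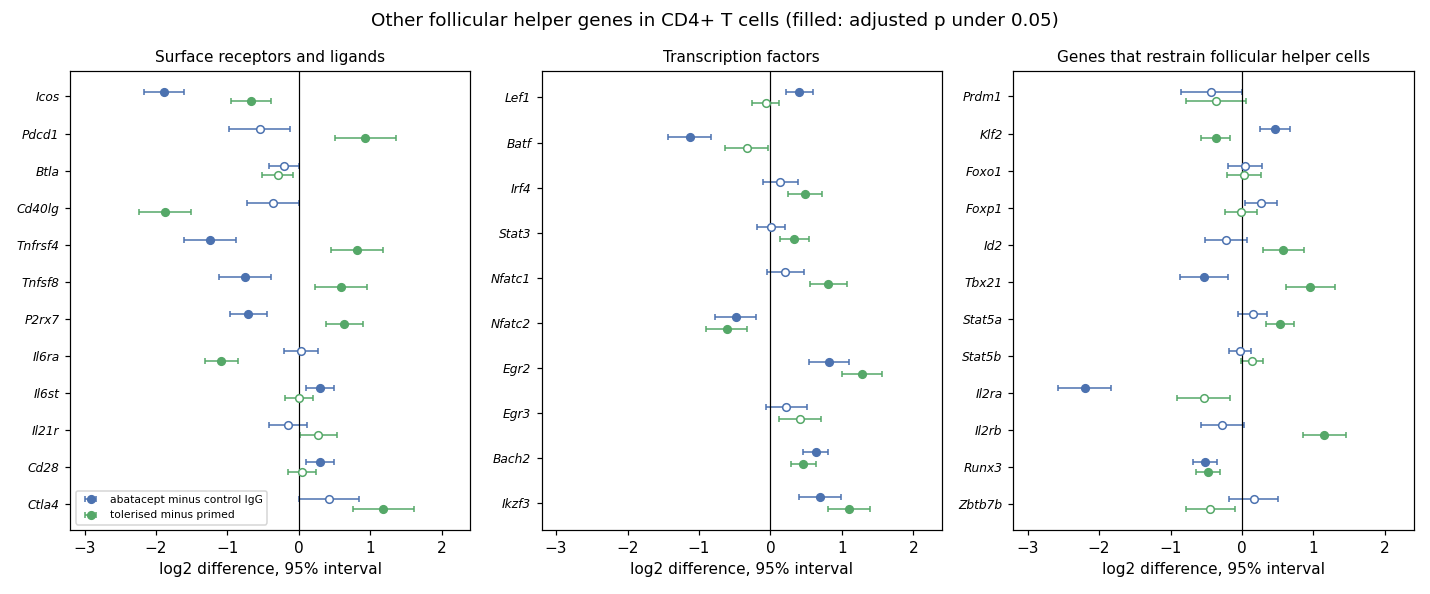
Log2 differences with 95% intervals of other follicular helper genes in CD4+ T cells, for abatacept minus control IgG (blue) and tolerised minus primed (green), in panels of surface genes, transcription factors and restraining genes, filled where the adjusted p is under 0.05. Icos is at -1.89 and Il2ra at -2.20 under abatacept, and Cd40lg at -1.87 in tolerised cells.

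Genes with the most similar pattern were ranked by the root mean square difference from each gene over the 15 CD4+ arrays, each centred on its own mean, among 10321 others. Nearest to Bcl6 were Itgal (0.12), Cblb (0.15) and Dgkz (0.15), and nearest to Cxcr5 were Syp (0.47), Ikzf2 (0.47) and Tnfrsf9 (0.57). Cd200 had Ephx1 (0.39), Lad1 (0.41) and, like Cxcr5, Ikzf2 (0.43). Sh2d1a had Cd96 (0.11), Dpp4 (0.13) and Hivep2 (0.13), and Slamf6 had Gstp3 (0.17), Jak3 (0.19) and Dennd2d (0.20). Pou2af1 was nearest to Gadd45b (0.26), Nrn1 (0.31) and Spag1 (0.31), Id3 to Cacna2d4 (0.24), AI504432 (0.25) and Bicdl1 (0.26), and Maf to Adam9 (0.32), Mapre2 (0.36) and Osbpl3 (0.39). Among the 8 genes the closest pair was Slamf6 with its adaptor Sh2d1a (0.27), and Cxcr5 was nearest to Cd200 (0.58). The points share arrays and the unimmunised group that stood apart, and the distances are descriptions.

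The second Bcl6 probe set put 9 of 10 pairs of CD4+ groups in the same order as the first. For Slamf6 1 further probe set kept 10 of 10 pairs and another 7 of 10, the latter with group means of 4.17 to 5.85. The latter averaged 5.525 under control IgG and 5.674 under abatacept, opposite in direction to the Slamf6 probe set used.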

How the data were processed

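RNA of MACS-purified CD4+ and CD11c+ cells was hybridised to 30 single-colour arrays, 3 for each of 5 groups per cell type. The deposited log2 values were made by the authors with RMA, per the submitters' processing notes, with the version not given in the sources used here. Its table held 45118 probe sets, of which 28898 had 1 symbol, 551 several and 15669 none, and 17097 genes remained. The 8 genes and all lists were chosen with earlier results of these data known.

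Values were kept on the deposited log2 scale. A gene was tested if it exceeded the array median on at least 3 arrays (10322 genes in CD4+, 10203 in CD11c+ cells, 10838 over both). Differences were tested two-sided with limma 3.58.1 (lmFit and eBayes, R 4.3.3) over the 5 groups of a cell type (10 residual degrees of freedom) or, between cell types and for interactions, over all 30 arrays. P-values were adjusted by Benjamini-Hochberg over all genes tested, and a call is an adjusted p under 0.05. Folds are 2 to the power of the log2 difference. Figures were drawn with matplotlib 3.10.9 (Python 3.11.15), and the fits were tested on simulated data. The labels name no hybridisation batch, array number limits the precision, and intervals are 95% limits from the fits.

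Named genes were the 8, up to 3 called genes with the smallest adjusted p per list and CD4+ comparison, and Icos, Pdcd1, Il21, Cd40lg, Prdm1, Ascl2, Tox2, Foxp3, Tbx21 and Id2. Marker lists of other cells were averaged per array over the genes on the array.

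Alternatives were a fit of only the groups compared, no filter, repeated quantile normalisation, array weights, the averaging of a gene's probe sets, a replicate block and leaving out each array in turn. Another 3 were added after seeing the data: values relative to T cell markers, no unimmunised CD4+ arrays, and no CD11c+ arrays with Amy1 above 7. Replicate numbers did not pair the samples: deviations of same-numbered arrays correlated at -0.23 to 0.132 in CD4+ and -0.191 to 0.325 in CD11c+ cells.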

Additional observations from a re-analysis of the deposited data

Results flagged for a closer look

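Some responses differed between CD4+ and CD11c+ cells by limma's interaction over the 30 arrays (CD4+ difference minus CD11c+ difference, log2). Priming, where 14.6% of all genes were called higher and 27.3% lower, gave 1.84 for Cxcr5, 1.32 for Slamf6, 0.78 for Id3 and 1.33 for Maf. Abatacept against control IgG (4.97% and 9.29% of all genes) gave -2.76 for Maf, 1.38 for Cd200 and 1.31 for Pou2af1, and Maf was the gene that was called in opposite directions in the cell types. The Pou2af1 call was lost in 10 of 36 alternatives and the Cd200 call in 2. Tolerised against primed (4.94% and 6.27% of all genes) gave 2.19 for Cxcr5 and 1.48 for Cd200. In CD4+ cells Maf was below the array medians under both abatacept and control IgG, so the size of its abatacept interaction is not exact. Cxcr5 and Pou2af1 were near or below the array medians in CD11c+ cells, so the size of their interactions is not exact. For Pou2af1 the CD4+ difference under abatacept was 0.92, and the CD11c+ means were 3.82 under abatacept and 4.21 under control IgG. Organ of origin and cell type cannot be told apart in any of them.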

How the results depend on the processing

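Most results kept their direction and their side of the threshold: of 1077 recomputed counts 1024 stayed within 1.5 times the reported one, and of 3315 recomputed single-gene results 3198 were unchanged in call and direction. The cause of the exceptions was not tested. With only the groups compared in the fit, genes called fell to 5 (from 9) for control IgG against primed, 898 (from 1514) for tolerised against primed, 1183 (from 2408) for abatacept against tolerised and 123 (from 290) for CD11c+ tolerised against primed. For abatacept against tolerised 2 in place of 4 of the 8 genes were then called, since Id3 lost its call and Maf, no longer passing the filter, was not tested. With array weights the counts over all genes were 15 for control IgG against primed, 532 for CD11c+ tolerised against primed, 2696 (from 1560) for CD11c+ abatacept against control IgG and 2513 (from 1546) for the interaction of abatacept. With no filter or array weights 1 of the 8 genes in place of 2 was called for tolerised against primed.

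The replicate number as a block gave 1 in place of 2 of the 8 for tolerised against primed and 3 in place of 4 for CD4+ abatacept against control IgG and for CD11c+ abatacept against control IgG, with Sh2d1a, Cd200 and Slamf6 losing their calls at adjusted p of 0.057, 0.074 and 0.055. The numbers did not pair the samples, and 3 of 15 CD4+ and 7 of 15 CD11c+ arrays correlated best with their own number.

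Leaving out 1 array at a time gave 1 to 4 of the 8 genes and 1031 to 1917 of all genes for abatacept against control IgG, 1 to 2 and 984 to 1567 for tolerised against primed, 1 to 4 of 6 and 525 to 1828 for CD11c+ abatacept against control IgG, 76 to 401 of all genes for CD11c+ tolerised against primed, 1 to 3 and 1011 to 1708 for the interaction of abatacept and 2 to 4 for that of tolerised. Uncalled differences changed sign among them: Maf ranged from -0.48 to 0.09 for primed and from -0.061 to 0.41 for tolerised against unimmunised, Bcl6 from -0.030 to 0.24, Cxcr5 from -0.58 to 0.22 and Cd200 from -0.042 to 0.52 for abatacept against control IgG, Id3 from -0.26 to 0.077 for tolerised against primed, and Slamf6 from -0.022 to 0.19 for CD11c+ tolerised against primed.

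Among alternatives chosen after seeing the data, values relative to T cell markers turned Bcl6 (-0.40) and Id3 (-0.050) for primed, Maf (-1.02) for tolerised and Bcl6 (-0.37) for abatacept against unimmunised, and Sh2d1a (0.10) and Id3 (0.063) for tolerised against primed, where 5 of the 8 were then called, and 7 for abatacept against tolerised. Without the CD11c+ arrays with high Amy1, CD11c+ abatacept against control IgG gave 1 of 6 and 426 of all genes, CD11c+ tolerised against primed 84, and the interaction of abatacept 926. Without the unimmunised CD4+ arrays all calls among the 8 were kept and Cd200 was gained for abatacept against tolerised (adjusted p = 0.035). Signals below the array medians (Cxcr5 in unimmunised CD4+ and in CD11c+ cells, Pou2af1 on 13 of 15 CD11c+ arrays, Maf under abatacept and control IgG in CD4+ cells) limit the folds of these genes.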
